A study of Mus musculus with 8 samples.

Results

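The genes of cholesterol and fatty acid synthesis that are known targets or regulators of the sterol regulatory element binding proteins (SREBPs) were followed in the epidermis of newborn mice with and without Zfp750, a zinc finger transcription factor of keratinocyte differentiation. The 28 genes were taken from a given list by symbol, in pathway order, out of 15995 genes in the deposited expression table. All 28 had a row (Msmo1 under its older symbol Sc4mol) and all 28 passed the filter on low values. The mice labelled ZFP750-/- gave 4 libraries (KO) and the wild-type mice gave 4 (WT); all were C57BL/6J newborns, and the labels give no age in days. Skin was floated on cold trypsin-EDTA overnight, and the epidermis was lifted off, snap-frozen and used for stranded, ribosomal-RNA-depleted total RNA sequencing. Neither the deleted part of the gene nor sex, litter or pooling is stated in the labels. Sample titles carry an unexplained code (11, 14 or 44), and both genotypes have libraries with each. Because nothing states that the libraries of a genotype came from separate animals, p-values measure the spread between these libraries, which may be partly technical.

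Cholesterol is built from acetyl-CoA through mevalonate, isoprenoid pyrophosphates, squalene and lanosterol. When sterols in the endoplasmic reticulum are scarce, SREBP is released from its INSIG-bound complex, cut in the Golgi, and enters the nucleus, where it raises transcription of these genes; SREBP-2 acts mainly on sterol genes and SREBP-1c mainly on fatty acid genes. Cells of the upper epidermis use the products, because cholesterol, ceramides and free fatty acids fill the space between the dead cells of the stratum corneum and hold water in.

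To show what lies upstream of these genes, windows around the start sites (250 bases before to 50 after) were taken from RefSeq for GRCm38.p6, and 24 of the 28 genes had one; Fdps, Fdft1, Sqle and Stard4 did not. Upstream bases outside annotated exons are printed for Hsd17b7, which differed most between genotypes, Nsdhl, which acts beside it in the same step, Hmgcs1, the most abundant member, and Fasn, the main fatty acid enzyme. Capitals mark CCAAT on either strand (ATTGG is its complement), CACGTG (an E-box) and the sterol-response letters TCACNCCAC.

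Hsd17b7, chr1:169969242-169969408 (- strand): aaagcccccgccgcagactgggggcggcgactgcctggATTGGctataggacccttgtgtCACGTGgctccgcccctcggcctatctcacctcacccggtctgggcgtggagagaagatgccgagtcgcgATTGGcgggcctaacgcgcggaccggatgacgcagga

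Nsdhl, chrX:72918412-72918520 (+ strand): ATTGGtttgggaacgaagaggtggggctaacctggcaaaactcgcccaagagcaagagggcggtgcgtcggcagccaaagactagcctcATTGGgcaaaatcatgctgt

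Hmgcs1, chr13:119690101-119690350 (+ strand): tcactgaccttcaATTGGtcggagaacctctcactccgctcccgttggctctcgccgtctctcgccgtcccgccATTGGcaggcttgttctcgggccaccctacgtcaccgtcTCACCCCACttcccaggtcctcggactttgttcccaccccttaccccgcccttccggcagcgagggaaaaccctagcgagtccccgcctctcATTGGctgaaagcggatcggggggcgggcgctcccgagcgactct

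Fasn, chr11:120824548-120824797 (- strand): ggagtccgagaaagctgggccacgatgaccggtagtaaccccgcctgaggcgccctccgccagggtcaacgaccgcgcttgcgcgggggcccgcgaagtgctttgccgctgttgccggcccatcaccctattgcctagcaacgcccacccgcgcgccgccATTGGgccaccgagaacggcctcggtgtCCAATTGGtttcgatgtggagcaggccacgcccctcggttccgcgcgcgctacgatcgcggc

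CCAAT, the element bound by NF-Y, a known partner of SREBP, occurred in 22 of 24 members with a window (91.7%). Its share of the 8454 tested genes with a window was 43.1%. Some genes have several windows, and a gene was counted when any of them held a match. TCACNCCAC occurred in 1 of 24, Hmgcs1, and in 1.4% of tested genes with a window. CACGTG occurred in Dhcr7, Hsd17b7, Insig1 and Sc5d, 4 of 24 (16.7%), against 12.1% of tested genes with a window. Both strands were searched, 2 CCAAT matches on opposite strands overlap in Fasn, CCAAT was absent from the Acat2 and Acaca windows, and matches describe letters only.

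Zfp750 stood at 2.68, 2.31, 2.29 and 1.53 FPKM in KO, against 119, 111, 81.6 and 93.7 FPKM in WT. Values are FPKM (fragments scaled by gene length and library size), so read depth is unknown; summed FPKM per library ran between 483416 and 577300. Suprabasal keratinocyte markers summed to between 15376 and 23085 FPKM in KO and between 16314 and 22293 FPKM in WT, and 1 of the 9 tested, Ivl, rose. Basal keratinocyte markers summed to between 2422 and 6315 FPKM in KO and between 1174 and 3615 FPKM in WT; 5 of 8 rose. Langerhans and immune markers summed to between 2.03 and 4.23 FPKM in KO and between 23.2 and 43.8 FPKM in WT, and all 5 tested fell. None of the melanocyte (8), fibroblast (6) or hair follicle (6) markers tested passed. The 4 muscle markers did not pass the filter on low values. They summed to 30.2 FPKM in WT library 3, and to 0.388, 0.439 and 0.965 FPKM in WT libraries 1, 2 and 4. In KO they summed to between 0.165 and 3.42 FPKM. Sebocyte markers, from lipid-making glands, summed to between 33.5 and 46.3 FPKM in KO and between 30.3 and 42.0 FPKM in WT; Mgst1 rose and Far2 fell. The adipocyte markers Adipoq, Plin1 and Lep were not analysed here. The other 3, Fabp4, Cidec and Cfd, summed to between 20.9 and 49.5 FPKM in KO and between 7.88 and 48.5 FPKM in WT. Of these, Cfd stood at 13.8 FPKM in WT library 3 and at no more than 0.710 FPKM in any other library. The part of these shifts in the results below was not tested, and in bulk tissue fewer cells of a type and less RNA per cell cannot be told apart.

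For most of the pathway no difference between the genotypes passed the test, and the few enzymes that passed moved in both directions. By limma on log2(FPKM + 1), with Benjamini-Hochberg adjustment over all 11395 tested genes and a threshold of 0.05, 1 member rose (Nsdhl), 4 fell (Hsd17b7, Me1, Stard4 and Tm7sf2) and 23 did not pass. With the title code as a block, 3 rose (Fdps and Srebf1 added) and 6 fell (Mvk and Pmvk added). That block fit called 1034 of all 11395 tested genes higher and 1227 lower in KO. The fit on genotype alone called 17.9% of members, against 15.7% of all tested genes; 6.72% of all tested genes were higher and 8.94% lower in KO. The 2 genotypes did not overlap for 9 members, 4 higher and 5 lower in KO (32.1%), against 21.3% of all tested genes. The log2 change was positive for 14 members and negative for 14, with a median of 0.01, equal to that of all tested genes, and it was under 0.5 in size for 22. Among all 11395 tested genes it was positive for 5797, negative for 5598 and under 0.5 in size for 8827.

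**Figure D1:**
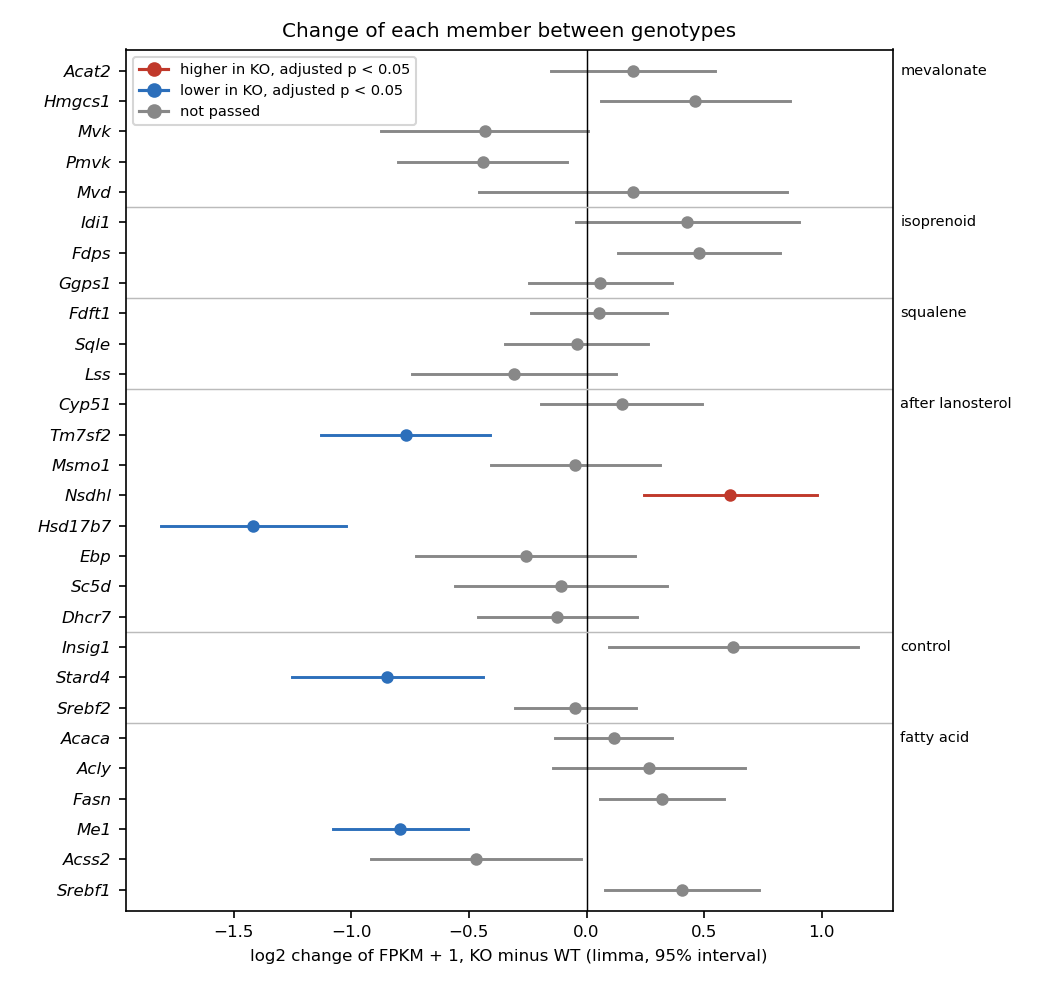
Log2 change (KO minus WT, log2 of FPKM + 1) of each of the 28 genes, in pathway order, as the limma estimate with its 95% interval. Nsdhl in red passed as higher in KO; Hsd17b7, Me1, Stard4 and Tm7sf2 in blue passed as lower; the 23 in gray did not pass.

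The steps that turn acetyl-CoA into isopentenyl pyrophosphate showed no member that passed in the fit on genotype alone. With the title code as a block, 2 passed as lower in KO, Mvk and Pmvk. Acat2, which joins acetyl-CoA units and has a near-identical mouse copy, Acat3, that could share reads, averaged 16.9 ± 2.05 FPKM in KO and 14.7 ± 2.75 FPKM in WT (SD, n = 4 each). Hmgcs1, the HMG-CoA synthase, stood at 191, 194, 204 and 315 FPKM in KO, against 191, 152, 139 and 163 FPKM in WT. The groups did not overlap, though the lowest KO library and the highest WT library both round to 191. Its log2 change was 0.46 ± 0.18 (SE), adjusted p = 0.118. Mvk and Pmvk, the kinases that phosphorylate mevalonate, averaged 40.5 ± 9.12 and 47.1 ± 9.0 FPKM in KO, against 54.8 ± 11.3 and 64.2 ± 10.4 FPKM in WT, with adjusted p = 0.186 and 0.0983. With the title code as a block, their log2 changes of -0.43 ± 0.11 and -0.44 ± 0.14 had adjusted p = 0.0196 and 0.0491. With array weights the adjusted p were 0.0188 and 0.00648. With log2 of Xist, the X-inactivation RNA, as a covariate they were 0.622 and 0.422. When 1 library was left out, they ran between 0.0772 and 0.397 for Mvk and between 0.0226 and 0.248 for Pmvk. Mvd, the decarboxylase that ends this stretch, had 39.2 ± 16.2 FPKM in KO and 33.2 ± 9.76 FPKM in WT, and its log2 interval of -0.46 to 0.85 spans 0. The median log2 change over the 5 genes was 0.20, and 3 of them were positive.

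The 3 isoprenoid genes all had positive log2 changes, and none passed in the fit on genotype alone. Fdps, which makes farnesyl pyrophosphate, stood at 109, 113, 114 and 156 FPKM in KO and at 96.9, 96.2, 70.2 and 88.4 FPKM in WT; the KO range lay above the WT range. Its log2 change was 0.48 ± 0.15, adjusted p = 0.0646, and 0.0294 with the title code as a block. It shares 1124 annotated exon bases with Gm43738 on the same strand. Idi1, the isopentenyl pyrophosphate isomerase, averaged 65.8 ± 17.5 FPKM in KO and 48.6 ± 12.2 FPKM in WT (log2 change 0.43 ± 0.21, adjusted p = 0.224). Ggps1, which makes geranylgeranyl pyrophosphate for protein prenylation, averaged 11.4 ± 1.56 FPKM in KO and 10.9 ± 1.25 FPKM in WT. The 3 genes of squalene synthesis and its closure to lanosterol did not pass: Fdft1 (squalene synthase) had a log2 change of 0.05 ± 0.13, Sqle of -0.04 ± 0.14 and Lss (lanosterol synthase) of -0.31 ± 0.19. For Sqle, the squalene epoxidase, the 95% interval was -0.35 to 0.26.

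The steps after lanosterol, 8 of the 28 members, held 3 of the 5 calls, Tm7sf2, Nsdhl and Hsd17b7. That is 37.5% of the 8, against 15.7% of all tested genes. Whether calls concentrate in this stretch was not tested. Hsd17b7, the keto-steroid reductase of sterol demethylation (chromosome 1, 169949535 to 169969241, minus strand), stood at 28.8, 24.2, 23.7 and 28 FPKM in KO and at 99.5, 75.2, 57.1 and 60.5 FPKM in WT. All KO libraries lay below all WT libraries, and the KO mean was 35.8% of the WT mean. The log2 change was -1.42 ± 0.17, adjusted p = 6.36e-04. In rank by mean level among the 28 members, Hsd17b7 was number 22 in KO and number 6 in WT.

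Hsd17b7 works with Msmo1 and Nsdhl, which together remove the methyl groups at the sterol A ring, and the 3 did not change alike: Hsd17b7 fell, Nsdhl rose and Msmo1 did not pass. Nsdhl, the decarboxylating dehydrogenase (chromosome X, 72918557 to 72958514, plus strand), stood at 15.1, 15.5, 20.3 and 24.8 FPKM in KO and at 11.8, 12.9, 11.6 and 11 FPKM in WT. The groups did not overlap, and the log2 change was 0.61 ± 0.16, adjusted p = 0.0332. Msmo1, the methylsterol oxidase, averaged 99.8 ± 19.5 FPKM in KO and 103 ± 16.7 FPKM in WT, with adjusted p = 0.880. Nsdhl passed only narrowly: it missed the threshold in 8 of the 23 alternative settings, with adjusted p = 0.0905 without KO library 3, between 0.0621 and 0.0824 without any 1 of the WT libraries, 0.0561 after quantile normalization, and 0.111 in libraries of title codes 11 and 14 alone (0.112 with the genes of the full fit).

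Tm7sf2, a sterol reductase (chromosome 19, 6062821 to 6068373, minus strand), stood at 9.69, 9.89, 13.4 and 13.7 FPKM in KO and at 21.5, 24.3, 17.5 and 18.8 FPKM in WT. Every KO library was below every WT library, and the log2 change was -0.77 ± 0.16, adjusted p = 0.0107. It shares 532 annotated exon bases with Vps51 on the same strand, a trafficking gene that did not pass (19.1, 24.3, 23.0 and 24.4 FPKM in KO, against 26.1, 28, 23.6 and 22.7 FPKM in WT; adjusted p = 0.497). The other enzymes after lanosterol, Cyp51, Ebp, Sc5d and Dhcr7, did not pass, with log2 changes between -0.26 and 0.15. Dhcr7, a sterol reductase late in the pathway, stood at 37.4, 37.7, 38.7 and 59.0 FPKM in KO. In WT its values were 46.1, 46.4, 45.5 and 47.1 FPKM. WT libraries were nearly equal, with a coefficient of variation of 1.44%, and 3 KO libraries lay below them and 1 above, with 24.4%.

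**Figure D2:**
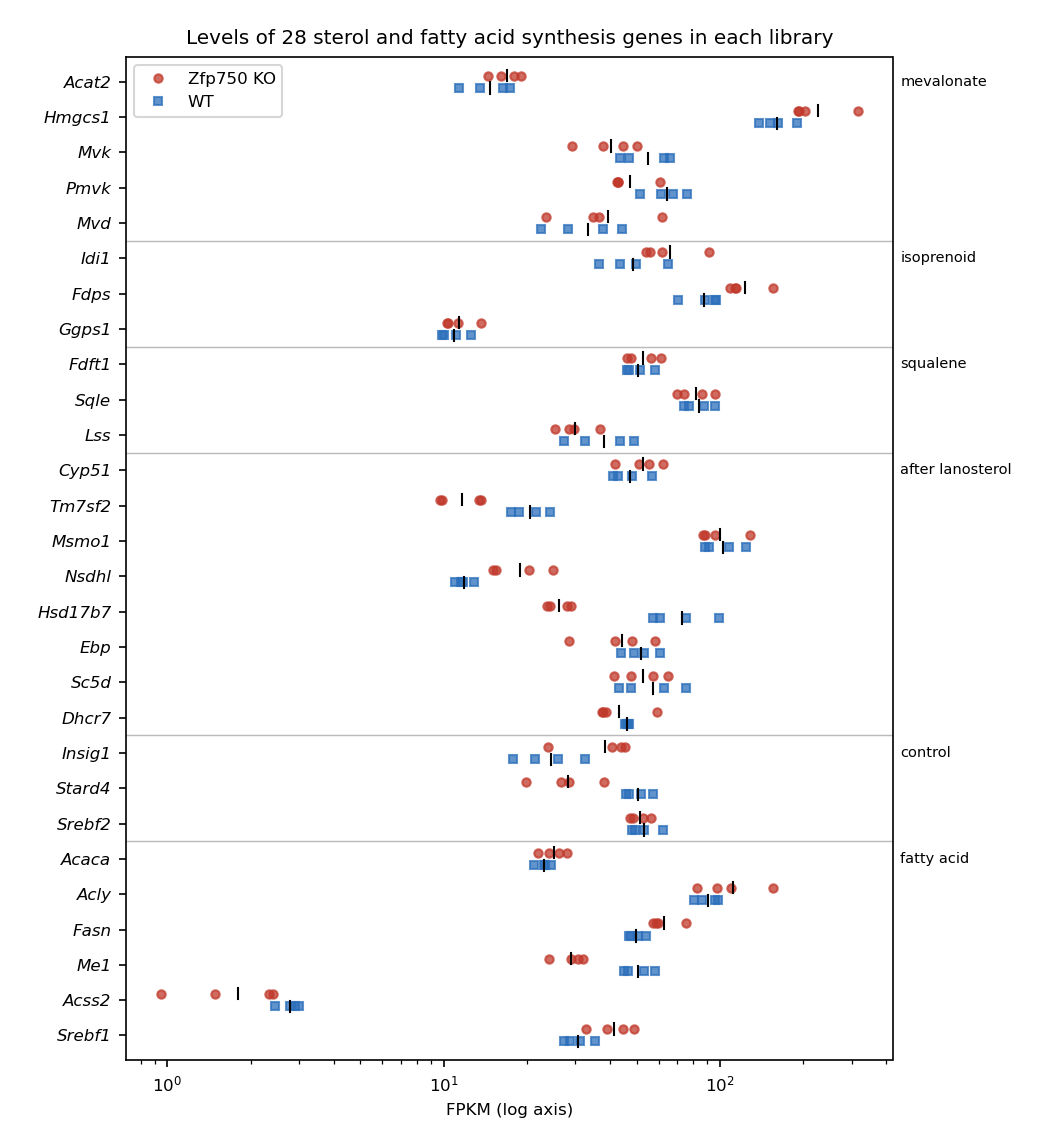
FPKM (log axis) of the 28 genes in each library; red circles are KO, blue squares WT, black bars the means. Hsd17b7, Tm7sf2, Stard4, Me1 and Acss2 have every KO point left of every WT point, and Nsdhl, Fdps, Hmgcs1 and Fasn every KO point right of them.

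Of the genes that control or carry sterols, Stard4 fell. Stard4, a cytosolic sterol transfer protein, stood at 19.9, 26.7, 28.3 and 38.1 FPKM in KO and at 57.3, 51.7, 45.8 and 47.0 FPKM in WT; no KO library reached the lowest WT library. Its log2 change was -0.85 ± 0.18, adjusted p = 0.0121. The call was lost in the title code 44 libraries alone (-0.71, adjusted p = 0.0628). Insig1, which holds SREBP in the endoplasmic reticulum when sterols are plentiful, stood at 40.8, 43.9, 23.8 and 45.2 FPKM in KO and at 26.0, 32.4, 17.9 and 21.4 FPKM in WT. KO library 3 fell within the WT range and the other 3 KO libraries above it; the log2 change was 0.62 ± 0.24, adjusted p = 0.111, and 0.0295 without that library. Srebf2, the gene of SREBP-2, averaged 51.2 ± 4.03 FPKM in KO and 53.1 ± 6.27 FPKM in WT, with a log2 interval of -0.31 to 0.21.

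Among fatty acid genes, Me1 fell and the others did not pass in the fit on genotype alone. Me1, the cytosolic malic enzyme that supplies NADPH (chromosome 9, 86581371 to 86695953, minus strand), stood at 24.1, 28.9, 30.5 and 32.0 FPKM in KO and at 58.0, 53.0, 46.7 and 45.1 FPKM in WT. The groups did not overlap, and the log2 change was -0.79 ± 0.13, adjusted p = 0.00316. An antisense gene on the opposite strand, A330041J22Rik, shares 30 of its annotated exon bases. Fasn, fatty acid synthase, stood at 58.7, 59.6, 57.1 and 75.7 FPKM in KO and at 54.1, 47.6, 50.5 and 47.1 FPKM in WT. All KO libraries lay above all WT libraries, with a log2 change of 0.32 ± 0.12 and adjusted p = 0.102. Srebf1, the gene of SREBP-1, averaged 41.2 ± 7.02 FPKM in KO and 30.7 ± 3.6 FPKM in WT (log2 change 0.41 ± 0.15, adjusted p = 0.0947, and 0.0354 with the title code as a block). Acly and Acaca, which make cytosolic acetyl-CoA and malonyl-CoA, had log2 changes of 0.26 ± 0.18 and 0.11 ± 0.11. Acss2, an acetyl-CoA synthetase that uses acetate, was the least abundant member at 1.80 ± 0.703 FPKM in KO and 2.78 ± 0.239 FPKM in WT; the groups did not overlap, and the adjusted p was 0.152.

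Within a genotype, most members were highest in the same library. KO library 4 held the highest KO value for 23 of 28 members (82.1%), against 27.2% of all tested genes, and WT library 1 the highest WT value for 19 (67.9%), against 15.4% of all tested genes. Summed over the members, FPKM was 1263, 1395, 1371 and 1862 in the KO libraries and 1673, 1487, 1270 and 1307 in the WT libraries; these sums overlap between genotypes. The same 2 libraries had the lowest basal keratinocyte marker sums of their genotype, in KO 6315, 4545, 5481 and 2422 FPKM and in WT 1174, 1790, 2789 and 3615 FPKM. They also had the highest suprabasal and the lowest melanocyte marker sums of their genotype. Both libraries had the fewest genes at 1 FPKM or more in their genotype. Those counts were 11193, 11368, 11327 and 10637 in KO, and 10745, 10889, 11599 and 11458 in WT. The part of cell composition or of library quality in this pattern was not tested. The coefficient of variation was larger in KO for 23 of 28 members, with medians of 18.9% in KO and 13.8% in WT. The same share over all tested genes was not computed, so it is not known whether this is particular to the members. The KO spread includes KO library 4, which held the highest KO value for 23 of 28 members.

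**Figure D3:**
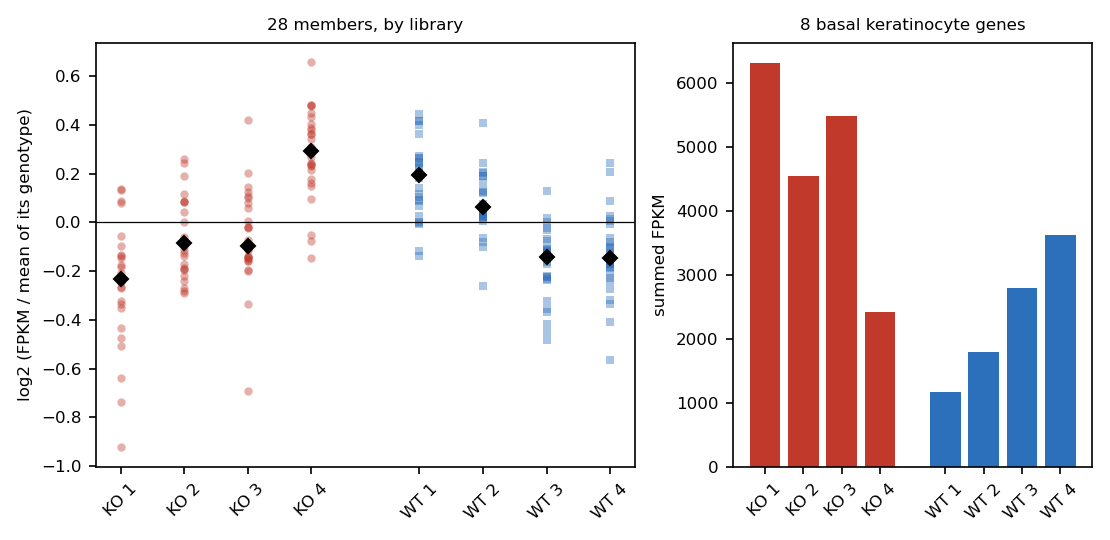
Left, the 28 genes in each library as log2 of FPKM over the mean of their own genotype, with black diamonds for the median; right, the summed FPKM of 8 basal keratinocyte markers. The members sit highest in KO library 4 and WT library 1, where the basal marker sums are 2422 and 1174 FPKM, the lowest of each genotype.

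The KO minus WT change was compared between libraries of title codes 11 and 14 together and those of code 44, as an interaction term. No gene of 11395 passed (0% of all tested genes; 1771 at an unadjusted p under 0.05), nor did any member (3 at an unadjusted p under 0.05, smallest adjusted p = 0.235). Cyp51, the member with that smallest adjusted p, had a log2 change of 0.48 in codes 11 and 14 and -0.18 in code 44. Hsd17b7 had -1.12 in codes 11 and 14 and -1.71 in code 44, Insig1 1.07 and 0.17, and Me1 -0.77 and -0.81. A further split is visible in Xist, the X-inactivation RNA, which stood at 126, 84.6, 150.4 and 1.84 FPKM in KO and at 0.0223, 0.00870, 118 and 0.00825 FPKM in WT. Xist was high in every KO library but KO library 4, and among WT in library 3 alone. This split is uneven between the genotypes and partly follows them, and the labels do not give sex. With log2 Xist as a covariate, Tm7sf2 (adjusted p = 0.0726) and Stard4 (0.0770) no longer passed. Hmgcs1 (0.0221), Idi1 (0.0267), Fdps (0.00474) and Insig1 (0.0465) passed as higher in KO. Only KO library 4 and WT library 3 separate Xist from genotype, so these gains and losses depend largely on those libraries. For each of Hmgcs1, Idi1, Fdps and Insig1, KO library 4 held the highest KO value and WT library 3 the lowest WT value. Hsd17b7 and Me1 passed in all 23 alternative settings.

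Genes linked to the pathway were read from 7 lists of 111 genes, 105 with a row and 91 tested: 16 rose, 10 fell and 65 did not pass. That is 28.6% called, beside 15.7% of all tested genes, with a median log2 change of -0.05. Unless said otherwise, the genes named are up to 4 per list with the smallest p.

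Among other sterol enzymes, 1 of 9 fell and 2 rose, Cyb5b and Cyb5r3. Both pass electrons to sterol and fatty acid oxidases. Cyb5b averaged 34.9 ± 3.97 FPKM in KO and 19.4 ± 2.35 FPKM in WT (log2 change 0.82 ± 0.13, adjusted p = 0.00255). Cyb5r3 averaged 27.6 ± 2.91 FPKM in KO and 15.7 ± 4.74 FPKM in WT (log2 change 0.81 ± 0.19, adjusted p = 0.0186).

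Among SREBP regulators, 2 of 15 rose and 1 fell. Insig2, the other INSIG, stood at 14.1, 17.4, 24.3 and 29.6 FPKM in KO and at 49.7, 48.4, 57.2 and 47.8 FPKM in WT, with every KO library lower. Its log2 change was -1.26 ± 0.21, adjusted p = 0.00328, and that of Insig1 was 0.62 and did not pass. Rnf145, a ubiquitin ligase, averaged 27.8 ± 3.46 FPKM in KO and 14.3 ± 3.64 FPKM in WT, and Mlxip, a glucose-responsive factor, 7.07 ± 1.0 FPKM in KO and 4.05 ± 0.759 FPKM in WT.

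Uptake, transport and efflux genes gave 5 of 19 higher and 1 lower. Mylip, a ubiquitin ligase, stood at 8.23, 13.1, 12.8 and 18.2 FPKM in KO and at 2.88, 2.85, 4.73 and 5.83 FPKM in WT. All KO libraries were above all WT libraries, with a log2 change of 1.47 ± 0.26 and adjusted p = 0.00494. Abcg4 (a sterol exporter) rose by 1.20 ± 0.16 and Npc1 (lysosomal cholesterol exit) by 0.75 ± 0.14, and Gramd1c (a sterol transfer protein) fell by 1.52 on the log2 scale. Scarb1, a lipoprotein receptor named after its values were seen, rose by 0.80 ± 0.23 (adjusted p = 0.0408).

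Among genes that sulfate or oxidize sterols, Cyp11a1, which cuts the side chain of cholesterol to begin steroid hormone production, was listed at 0.0436, 0.174, 0 and 0.0436 FPKM in KO and averaged 9.36 ± 2.32 FPKM in WT. It fell by 3.26 on the log2 scale (adjusted p = 8.70e-06), where the added 1 FPKM understates the change of so low a gene. Sult2b1, which makes cholesterol sulfate in the epidermis, averaged 141 ± 13.9 FPKM in KO and 197 ± 27.4 FPKM in WT (adjusted p = 0.0381), and Cyp39a1, an oxysterol hydroxylase, 9.35 ± 2.05 FPKM in KO and 4.36 ± 0.741 FPKM in WT (adjusted p = 0.00677). In the isoprenoid branches the subunits of farnesyltransferase parted: Fnta, the alpha subunit shared with another prenyl transferase, averaged 36.6 ± 3.75 FPKM in KO and 61.4 ± 8.03 FPKM in WT (adjusted p = 0.00466). Fntb, the beta subunit, averaged 10.8 ± 1.35 FPKM in KO and 7.24 ± 0.243 FPKM in WT (adjusted p = 0.0235). Dolk and Icmt, in dolichol and CAAX processing, fell by 0.51 and 0.47 on the log2 scale.

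Citrate and NADPH supply had 2 of 15 higher and none lower. Slc25a1, the mitochondrial citrate carrier, stood at 36.0, 40.8, 48.7 and 53.4 FPKM in KO and at 27.9, 32.0, 23.9 and 31.3 FPKM in WT. All KO libraries were higher, with a log2 change of 0.61 ± 0.15, adjusted p = 0.0240. Aco1, cytosolic aconitase, rose by 0.84 ± 0.21. Of the other fatty acid steps, 3 of 14 rose and 2 fell. Fads2, a desaturase, averaged 3.12 ± 0.886 FPKM in KO and 0.590 ± 0.389 FPKM in WT, and Elovl5, an elongase, 9.85 ± 1.36 FPKM in KO and 19.0 ± 2.68 FPKM in WT (adjusted p = 0.00328 and 0.00332). Ppard and Tecr rose by 0.62 ± 0.16 and 0.59 ± 0.16, and Elovl6, named after its values were seen, fell by 0.59 on the log2 scale.

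**Figure D4:**
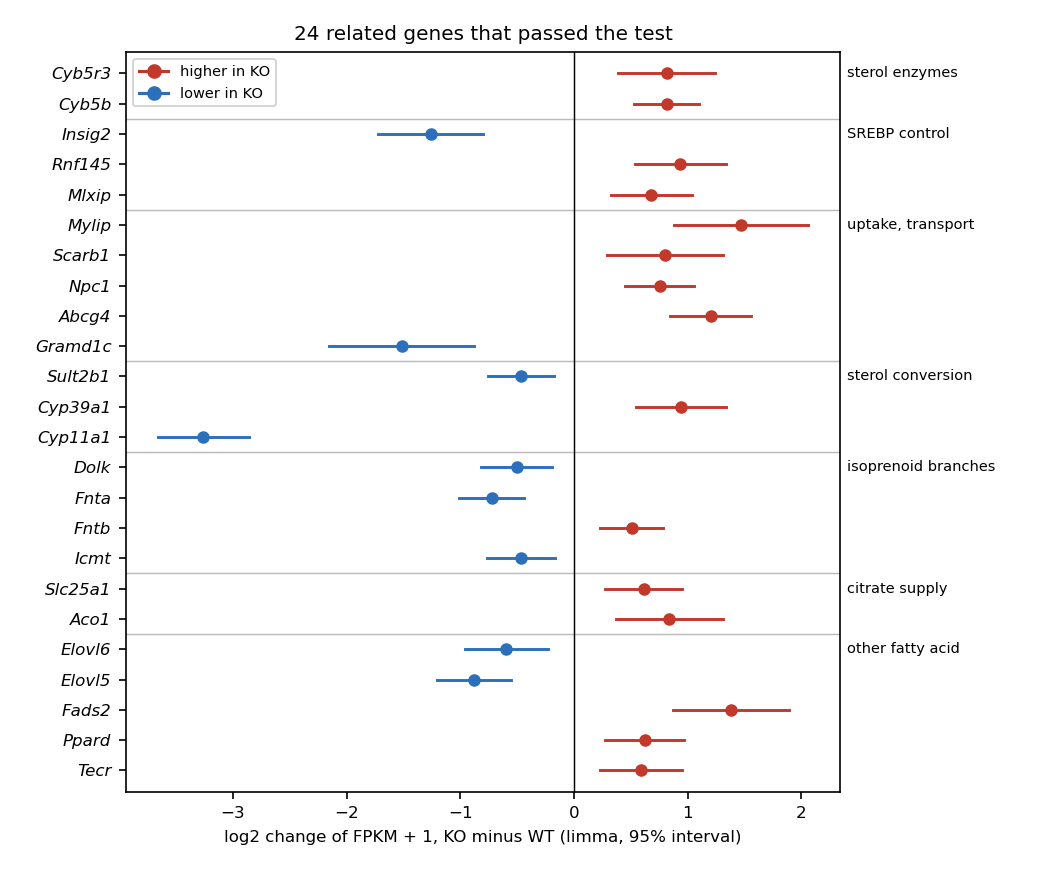
Log2 change (KO minus WT, log2 of FPKM + 1, limma, with 95% interval) of 24 related genes that passed, by list; red is higher and blue lower in KO. Cyp11a1, at -3.26, lies furthest left, and Mylip, at 1.47, furthest right.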

How the data were processed

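The deposited table holds FPKM for 15995 genes in 8 libraries, made by the authors; the submitters' processing notes name build mm10. Those notes and the labels do not name an aligner, quantifier or annotation, or say whether counting used strand. FPKM carry no counts, so depth and counting intervals cannot be given. Of the genes, 2029 had no value in some library and were set to 0 there; the median of their highest value was 0.167 FPKM. Krt1, Krt10, Rn45s and Flg2 were left out because they were listed at 0 in some libraries and at 100 FPKM or more in others.

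From these values, log2(FPKM + 1) was fitted with limma 3.58.1 (R 4.3.3, trended variance) on genotype alone in all 8 libraries, for the 11395 genes with at least 1 FPKM in at least 4 libraries. Adjusted p-values are Benjamini-Hochberg over those genes, with a threshold of 0.05; fold changes on this scale understate low genes. The difference between title codes was an interaction term in limma. Groups follow the genotype label. All 28 members are named; related genes are up to 4 per list with the smallest p among those that passed. Some related genes counted in their lists are not reported here by name. Members, lists and tests were chosen with earlier results of these data known. Alternatives changed the pseudocount, filter, normalization, variance weighting, title code, Xist covariate and library left out. Positions are from GENCODE M21 (GRCm38), and gene symbols not found were matched through older symbols. By that annotation 11 members share exon bases with another gene, 9 with one on the opposite strand, so their values are uncertain if strand was not used in counting.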

Additional observations from a re-analysis of the deposited data

Results flagged for a closer look

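Of 56 groups of 4 libraries (28 members in 2 genotypes), 5 held a library whose gap to its nearest neighbour exceeded Dixon's 95% critical share of the group's range; chance gives this in about 1 in 20 groups. All 5 were KO library 4 at the high end. Hmgcs1 stood at 315 FPKM there, with 191, 194 and 204 FPKM in the other KO libraries. Pmvk stood at 60.6 FPKM, with 42.2, 42.8 and 42.8 FPKM in the others. Fdps stood at 156 FPKM, with 109, 113 and 114 FPKM in the others. Dhcr7 stood at 59.0 FPKM, with 37.4, 37.7 and 38.7 FPKM in the others. Fasn stood at 75.7 FPKM, with 57.1, 58.7 and 59.6 FPKM in the others. Without that library, Pmvk passed as lower in KO (adjusted p = 0.0226).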

How the results depend on the processing

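No member changed direction past the threshold in any alternative, and Hsd17b7 and Me1 passed in all 23. Members higher in KO, 1 in the reported fit, numbered 3 with the title code as a block and 5 with log2 Xist as a covariate, and 0 to 2 when 1 library was left out. Where 1 member was higher, it was not always Nsdhl. It was Fdps after quantile normalization (adjusted p = 0.0339), and Insig1 in codes 11 and 14 alone and without KO library 3. Members lower in KO, 4 in the reported fit, numbered 6 with the title code as a block, 8 with array weights (Mvk, Pmvk, Lss and Acss2 added) and 2 with the Xist covariate, and 4 to 5 when 1 library was left out. Over all genes, 766 were higher; array weights gave 1942 and the Xist covariate 465 (474 to 1083 without 1 library). Of the 1019 lower, array weights gave 1727, the Xist covariate 676 and code 44 alone 575, or 551 with the genes of the full fit (649 to 1243 without 1 library). Related genes higher, 16, became 9 with the Xist covariate and 8 in codes 11 and 14 alone, or 6 with the genes of the full fit (9 to 18 without 1 library). Related genes lower, 10, became 16 with array weights and 6 in code 44 alone, also 6 with the genes of the full fit (6 to 12 without 1 library). The difference between codes, 0 genes, became 2 with no filter, 9 with median-ratio scaling, 8 after quantile normalization and 7 with array weights, and 0 to 37 without 1 library, 37 without KO library 3; it was 0 for members throughout. The settings restricted to the genes of the full fit were chosen after seeing the data. The cause was not tested. Pairing by replicate number was not possible because the genotypes share only 1 title number; the title code, which both genotypes share but the labels do not explain, was the block used. FPKM without counts set no limit that depth would give.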
